A study of Mus musculus with 22 samples.

Results

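The TCF/LEF factors and the proteins that work with beta-catenin were read in mouse livers with and without Tcf7l2. The set was chosen by name: Tcf7l2, Tcf7, Tcf7l1 and Lef1, which are the DNA-binding TCF/LEF factors, Ctnnb1 (beta-catenin), the corepressors Tle1 and Tle3, the coactivators Bcl9 and Pygo2, and Apc. Every probe whose gene name in the array files is one of these symbols or an older symbol of the same gene was taken, which gave 26 of 41174 probes, for 10 of 28034 named genes or transcripts. Another 5 probes carry the names Tcf3 or Tcf4, which are old names of Tcf7l1 and Tcf7l2, but their accessions belong to 2 other genes, and they were left out. The question was whether a relative or partner was higher where Tcf7l2 is deleted.

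TCF/LEF proteins bind the same short DNA motif and switch Wnt target genes between repression and activation. Without a Wnt signal they hold Groucho/TLE corepressors, while a destruction complex built around APC marks beta-catenin for degradation. With a signal, beta-catenin accumulates, displaces the corepressors and brings in BCL9 and Pygopus. Beta-catenin is also a part of cell junctions, and most of its control is on the protein, which arrays do not measure. In the adult liver this pathway sets the gene expression of hepatocytes around the central vein.

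All mice were C57BL/6, and 22 liver samples, 1 array each, fell into 6 groups. The newborn groups were 4 Tcf7l2+/+ (wild type) and 4 Tcf7l2-/- (named TCF4KO) pups. All the pups had received 50 ul of 10% glucose under the skin, and livers were taken at 5 h. All adult mice were Tcf7l2loxp/loxp and had been treated with tamoxifen at 3 weeks of age. Controls carried no Cre, and knockouts (named LTCF4KO) also carried SA-CreERT2, a Cre recombinase that tamoxifen activates. Between 1 and 2 months later, 4 controls and 4 knockouts went without food for 24 h, and 3 controls and 3 knockouts were fed. In adults only cells with active Cre lose the gene, so Tcf7l2 RNA of other liver cells stays in the sample. Which exons of Tcf7l2 were removed is not given in the sources used here, so a probe outside them would be no check of the deletion. Samples of a group are biological replicates per the labels, but littermates are not named.

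Each liver RNA was hybridised against one commercial mouse reference RNA, and values are log2 of liver over reference. A value of 0 means equal signal in liver and reference, and levels of different probes are not comparable. Feature Extraction, the scanner software, marks spots that are well above background. Liver-channel spots so marked made up 50.2% to 64.4% on newborn, 50.2% to 62% on fasted and 22.8% to 31.2% on fed arrays. Negative-control spots gave 88 to 180 intensity units over local background on fed arrays, against 18 to 29 on fasted and 49.5 to 66 on newborn arrays. Newborn wild types were all on 1 slide and newborn knockouts on another, so slide and genotype cannot be told apart there. Fasted and fed livers were on different slides, but each of the 4 adult slides held both genotypes. All 6 hepatocyte marker genes were well above background on every array. Fasted knockouts 2 and 3 stood apart in pancreas and fat genes, with summed signals of 42900 and 18900 against 519 to 2800 on all other arrays.

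Of the 26 member probes, 4 were well above background on none of the 22 arrays: 1 of 2 for Lef1 (A_52_P333110), 2 of 3 for Bcl9 (A_52_P89477 and A_51_P384700) and 1 of 6 for Apc (A_52_P284981). On fed arrays 15 of the 26 were never well above background, and 7 were so on all 6 arrays: 1 for Tcf7l2, 1 for Tcf7l1, the 3 for Ctnnb1 and the 2 for Tle1. Fed values of Tcf7, Lef1, Bcl9 and most Apc and Tle3 probes are therefore close to background, where differences are compressed. The same holds for Tcf7l2 A_52_P146043 and A_52_P316355 and for Tcf7l1 A_52_P387724. After the filter on dim probes, 21 member probes of 10 genes entered the newborn fit and 22 of 10 genes the adult fit.

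Tcf7l2 has 3 probes on chromosome 19 of build mm9, plus strand, at 55982975-55983034, 56006460-56006519 and 56007586-56007645. Whether they lie in exons or UTRs was not analysed here. The first of them, A_52_P146043, lies upstream of the others and is printed because its values differ from those of the brightest probe. Its 60 bases hold 1 reading frame without a stop codon.
A_52_P146043: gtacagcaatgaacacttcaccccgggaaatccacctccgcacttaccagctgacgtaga

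The brightest Tcf7l2 probe, A_52_P566741, was well above background on all 22 arrays. Its values were -1.28, -0.83, -0.70 and -0.32 in newborn wild types and -1.85, -1.57, -1.58 and -1.63 in newborn knockouts. Every newborn knockout lay below every wild type, and a separation of the newborn genotypes, in either direction, was found in 8.84% of all probes. The change was -0.87 ± 0.19 (SE, n = 4 and 4; 95% interval -1.29 to -0.46), with an unadjusted p of 0.000959 and a limma adjusted p of 0.0612 over 24411 probes, which did not pass the threshold of 0.05. The reference channel of this probe differed by 0.05 between the same arrays. Over all probes, the reference channel differed between newborn knockout and wild-type arrays for 14.7%, among them 0 member probes. The change of the Tcf7l2 probe passed in 3 of 11 alternatives, among them the liver channel alone (-0.82, limma adjusted p = 0.0307), and its values over the 11 ran from -0.96 to -0.67 with limma adjusted p from 0.0115 to 1. With 1 array left out it passed in 1 of 8 fits, without newborn wild type 1, the wild type nearest to the knockouts (-1.04, limma adjusted p = 0.0154), and adjusted p reached 0.201 in the others.

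The other Tcf7l2 probe that could be tested in newborns gave no such difference. A_52_P146043 read 0.08, -0.31, -0.03 and 0.02 in wild types and 0.08, -0.06, -0.09 and 0.16 in knockouts. These ranges overlap, and the change was 0.08 ± 0.12 (95% interval -0.19 to 0.35, limma adjusted p = 0.861). The difference between both probes on the same array was -0.72 ± 0.44 (SD, n = 4) in wild types and -1.67 ± 0.22 (SD, n = 4) in knockouts. This difference was formed after the values of both probes were seen, so it is a description and no test is given. The remaining probe, A_52_P316355, was not well above background on any newborn array.

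In adults no Tcf7l2 probe passed the test, in either direction. The fasted controls gave -0.13, 0.09, 0.03 and -0.10 with A_52_P566741, and their knockouts 0.63, -0.15, 0.22 and 0.57, which overlap. The change was 0.35 ± 0.17 (95% interval -0.02 to 0.72, limma adjusted p = 0.520), so the lower end of its interval lay at 0.983 of the control level. In fed controls it read -0.37, -0.06 and -0.64, and in fed knockouts 0.01, -0.35 and -0.13. The change was 0.21 ± 0.20 (95% interval -0.22 to 0.64, limma adjusted p = 1). Within each slide the mean of the knockouts lay above that of the controls, by 0.26 and 0.43 on the fasted and by 0.20 and 0.23 on the fed slides. A_52_P146043 differed by -0.07 ± 0.23 in fasted and 0.38 ± 0.27 in fed mice, and A_52_P316355 by 0.02 ± 0.15 and -0.11 ± 0.18, with adjusted p from 0.961 to 1 (limma). Neither A_52_P146043 nor A_52_P316355 was well above background on any fed array, so their fed changes give no direction. Over all 6 groups A_52_P566741 had its highest mean in fasted knockouts and its lowest in newborn knockouts. Of the neighbours in that order of means, newborn wild types and newborn knockouts did not overlap, and each other pair of neighbours did. Newborn knockouts also lay below every adult.

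Wnt target genes were measured on the same arrays. Of 12 tested targets, 6 fell in fasted and 3 in fed knockouts, and in newborn knockouts 0 of 10 passed (limma, 4 at an unadjusted p under 0.05). Among all probes 0.434%, 0.215% and 1.15% were called in these comparisons, in either direction. In newborns 12.7% of all probes had an unadjusted p under 0.05 (limma). The median change of the 12 targets was -1.56 in fasted and -0.60 in fed knockouts, with 2 above 0 in each. The targets named next are among those with the smallest adjusted p. Glul, the glutamine synthetase of perivenous hepatocytes, changed by -2.94 in fasted and -3.82 in fed knockouts (limma adjusted p = 0.000298 and 0.000177). Sp5, a direct Wnt target, changed by -4.68 and -2.58 (limma adjusted p = 1.63e-07 and 0.000618). These targets passed in the adult comparisons in which the Tcf7l2 probes did not.

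**Figure D1:**
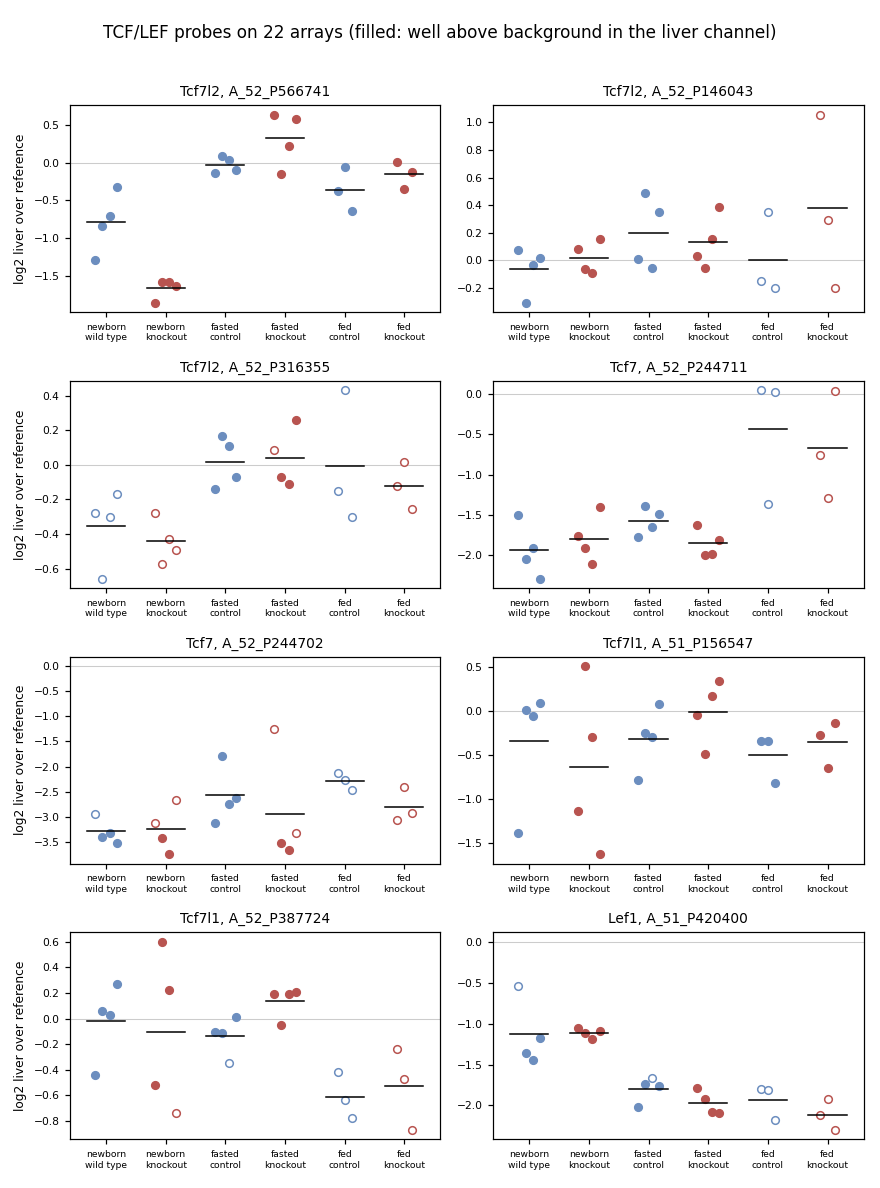
Log2 liver over reference (vertical axes) of 8 TCF/LEF probes in 22 mice of 6 groups (horizontal axes); each point is 1 mouse, filled where the liver channel was well above background and open where it was not, and lines are group means. Tcf7l2 A_52_P566741 ran from -1.85 to -1.57 in newborn knockouts, below all newborn wild types. The newborn genotypes overlap for the other Tcf7l2 probes and for Tcf7, Tcf7l1 and Lef1. Newborn genotypes did not overlap, in either direction, for 8.84% of all probes.

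No TCF/LEF relative passed the test in any knockout comparison. Among all probes tested, 1.15% were called in newborns, 0.434% in fasted and 0.215% in fed adults (limma), so a count of 0 among 21 or 22 member probes is close to that background. At an unadjusted p under 0.05 there were 4 member probes in newborns (12.7% of all probes), 0 in fasted (10.4%) and 0 in fed mice (6.84%). Over the 5 tested probes of Tcf7, Tcf7l1 and Lef1 and the 3 comparisons, 7 of 15 changes were above 0, and they ran from -0.51 to 0.31. The highest upper end of their 95% intervals was 1.70-fold, reached by Tcf7l1 in fasted knockouts. The intervals hold no larger rise on the scale of the array, which compresses differences of probes near background.

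Tcf7 (TCF1), the family member best known from T cells, has probes on chromosome 11, minus strand, at 52066831-52066890 and 52066114-52066173. The brighter, A_52_P244711, read -1.50, -2.06, -1.91 and -2.30 in newborn wild types and -1.77, -1.92, -2.12 and -1.40 in newborn knockouts. The fasted controls gave -1.78, -1.39, -1.65 and -1.49 and their knockouts -1.63, -2.01, -1.99 and -1.81. Genotypes overlapped in both pairs of groups. The changes were 0.14 ± 0.20 in newborns (limma adjusted p = 0.853), -0.28 ± 0.31 in fasted (0.832) and -0.24 ± 0.36 in fed mice (1). The other probe, A_52_P244702, had fasted knockout values of -1.24, -3.52, -3.66 and -3.31, and the array with the highest value was not well above background there.

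Cells that carry Tcf7 and Lef1 can differ in number between livers, and in bulk RNA fewer cells of a type and less RNA per cell cannot be told apart. The summed signal of 10 T cell markers ran from 2140 to 3320 in newborn wild types and from 2560 to 3500 in newborn knockouts. It ran from 1880 to 2980 in fasted controls and from 1320 to 2160 in fasted knockouts. In fed controls 8 of the 10 genes were well above background on no array. The part of these cells in the Tcf7 values was not tested.

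Tcf7l1 (formerly Tcf3), known mainly as a repressor, has probes on chromosome 6, minus strand, at 72577222-72577281 and 72576377-72576436. The brighter, A_51_P156547, was well above background on all 22 arrays. It read -1.38, 0.00, -0.06 and 0.09 in newborn wild types and -1.13, 0.51, -0.30 and -1.62 in newborn knockouts, with a change of -0.30 ± 0.47 (95% interval -1.36 to 0.76, limma adjusted p = 0.870). That is the widest interval of the family in newborns. In fasted mice it read -0.79, -0.25, -0.29 and 0.07 in controls and -0.05, -0.49, 0.17 and 0.34 in knockouts, with a change of 0.31 ± 0.21 (limma adjusted p = 0.686). The second probe, A_52_P387724, gave 0.28 ± 0.14 in the same mice (limma adjusted p = 0.529). In fed mice the probes differed by 0.14 ± 0.24 and 0.08 ± 0.16, but the second was well above background on no fed array, so its fed value gives no direction. Both probes were thus above 0 in fasted mice and below 0 in newborns, and the brighter was above 0 in fed mice. None of these values passed.

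Lef1, the member that acts mostly as an activator, was readable with 1 of its 2 probes. A_51_P420400 maps to chromosome 3, plus strand, between 130907851 and 130926012, a span longer than its 60 bases and so broken by an intron. Its values were -0.54, -1.35, -1.45 and -1.17 in newborn wild types and -1.05, -1.12, -1.19 and -1.09 in newborn knockouts. Fasted controls read -2.02, -1.74, -1.66 and -1.76, and fasted knockouts -1.79, -1.92, -2.07 and -2.09. The changes were 0.02 ± 0.18 (limma adjusted p = 0.986) and -0.17 ± 0.13 (0.708), with upper ends of the intervals at 1.35-fold and 1.07-fold. The newborn wild type at -0.54 was not well above background. All newborns of both genotypes lay above all adults for this probe.

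**Figure D2:**
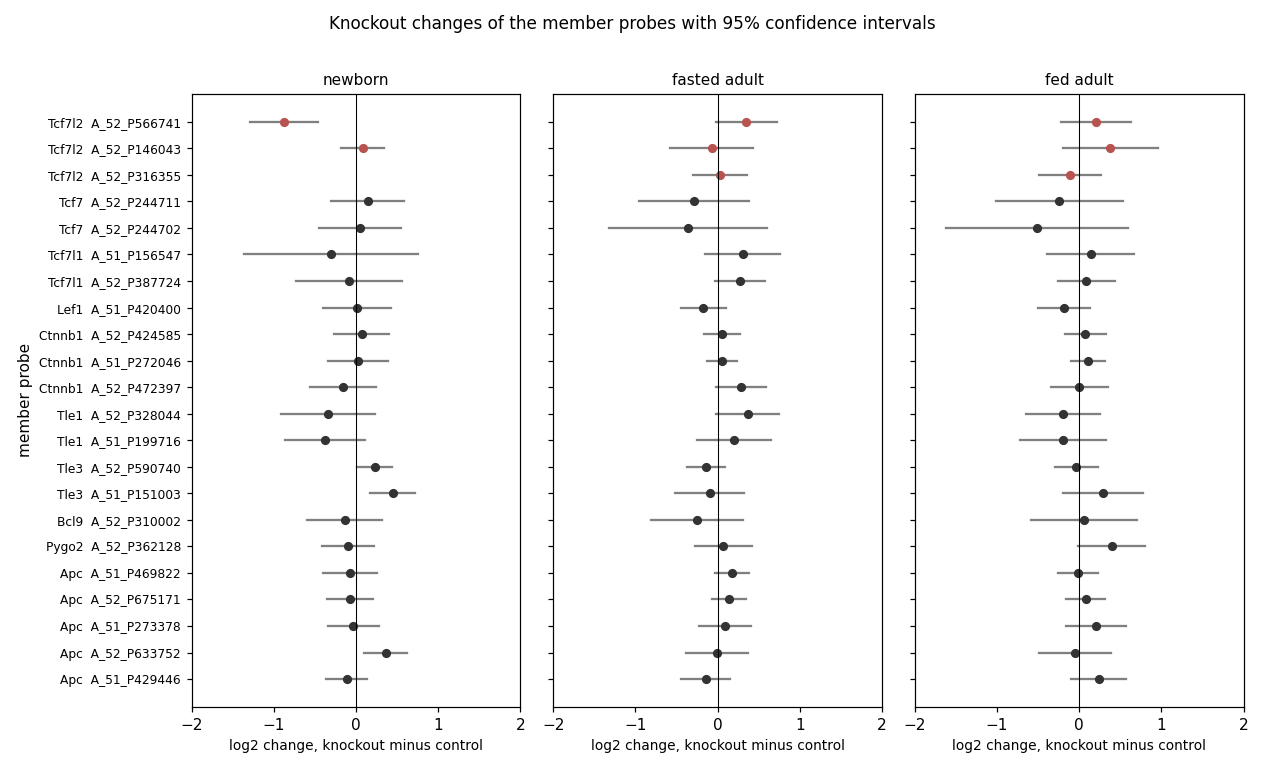
Log2 change of knockout minus control (horizontal axes) for each tested member probe (rows) in newborn, fasted and fed mice; points are limma estimates, lines their 95% confidence intervals, red points Tcf7l2. Tcf7l2 A_52_P566741 lies at -0.87 in newborns and at 0.35 and 0.21 in adults, and apart from both Tle3 probes and Apc A_52_P633752 in newborns every other interval includes 0.

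Beta-catenin is read by 3 probes on chromosome 9, plus strand, at 120869274-120869333 (A_52_P424585), 120868778-120868837 (A_51_P272046) and 120865275-120865334 (A_52_P472397), and all were well above background on all 22 arrays. None differed between genotypes beyond the threshold. The changes of A_52_P424585 were 0.07 ± 0.15 in newborns, 0.05 ± 0.10 in fasted and 0.08 ± 0.12 in fed mice. Those of A_51_P272046, which is printed on the array 10 times, were 0.03 ± 0.16, 0.06 ± 0.08 and 0.11 ± 0.10, and the upper end of its interval was highest in newborns, at 0.39. Fed knockouts read 0.53, 0.58 and 0.49 with this probe, above all fed controls at 0.43, 0.45 and 0.41. Such a separation was found in 10.9% of all probes in that comparison, and the adjusted p was 1 (limma). A_52_P472397 separated the fasted genotypes (-0.94, -0.63, -0.81 and -0.62 in controls; -0.55, -0.52, -0.51 and -0.29 in knockouts), as 6.26% of all probes did, with a change of 0.28 ± 0.14 (limma adjusted p = 0.516).

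The 10 spots of A_51_P272046 give the spread between spots of 1 array, which leaves out differences between labellings, arrays and slides. This spread is of single spots before loess. It is thus not directly comparable with the SD between mice, which is of loess ratios averaged over spots. Outlier spots were left out, which narrows the spread, and 8 or more of the 10 spots were used per array. The SD of the spots used on 1 array had a median of 0.08 on newborn, 0.03 on fasted and 0.08 on fed arrays. The SD between mice was 0.32 in newborn wild types and 0.15 in newborn knockouts, 0.09 and 0.10 in fasted controls and knockouts, and 0.02 and 0.05 in fed controls and knockouts. The spots of Apc probe A_52_P675171, of which 7 or more of 10 were used per array, had a median SD of 0.09, 0.06 and 0.16 on the same 3 kinds of array.

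Among beta-catenin and its partners, the smallest adjusted p of the knockout comparisons belonged to the corepressor Tle3 in newborns. Tle3 A_51_P151003 (chromosome 9, plus strand, 61264660-61264720) read -0.23, -0.38, -0.46 and -0.50 in wild types and 0.28, -0.09, -0.13 and 0.14 in knockouts. Its second probe, A_52_P590740 (61265424-61265483), read -0.17, -0.23, -0.29 and -0.35 in wild types and -0.05, 0.06, -0.14 and -0.00 in knockouts. Both sets of knockouts lay wholly above the wild types, as did those of 8.84% of all probes, in 1 direction or the other. The changes were 0.44 ± 0.12 (limma adjusted p = 0.137) and 0.23 ± 0.10 (limma adjusted p = 0.362), and neither passed. The reference channel of A_51_P151003 differed by 0.44 between the same arrays and its liver channel by 0.60 (limma adjusted p = 0.358 and 0.0743). In fasted mice the Tle3 changes were -0.10 ± 0.20 and -0.14 ± 0.11, and in fed mice 0.29 ± 0.23 and -0.03 ± 0.12. Of 7 Kupffer cell markers, 1 was lower in newborn knockouts past the threshold and 5 had an unadjusted p under 0.05 (limma), as 12.7% of all probes did. Their median change was -0.68, and their summed signal ran from 43300 to 63100 in wild types and from 23200 to 32200 in knockouts. Medians of the other marker lists ran from -0.47 (endothelial) to 0.05 (pancreas and fat), with stellate at -0.43, against -0.03 over all probes. The part of any of these cells in the Tle3 values was not tested.

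Tle1 was read by 2 probes on chromosome 4, minus strand, at 71779319-71779378 (A_52_P328044) and 71779366-71779425 (A_51_P199716), which share 13 positions. The sequences are printed because the probes read adjoining stretches of the gene and differ at 1 shared base. Capitals mark the shared positions, of which 12 match. Counted from 1 at the 5′ end of the shared stretch, the difference is G4A, with the base of A_51_P199716 first.
A_51_P199716: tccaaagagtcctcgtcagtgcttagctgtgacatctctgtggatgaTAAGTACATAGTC
A_52_P328044: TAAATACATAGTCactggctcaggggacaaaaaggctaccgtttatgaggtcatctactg

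These neighbouring Tle1 probes are not independent readings of the gene, and they gave similar genotype differences. A_52_P328044 read 1.81, 2.86, 2.55 and 2.29 in newborn wild types and 2.06, 1.48, 2.17 and 2.44 in newborn knockouts. The fasted controls gave 2.52, 2.39, 2.54 and 2.47 and their knockouts 2.68, 3.26, 2.44 and 3.00. The changes were -0.34 ± 0.25 in newborns, 0.36 ± 0.18 in fasted and -0.20 ± 0.21 in fed mice (limma adjusted p = 0.662, 0.513 and 1). A_51_P199716 gave -0.38 ± 0.22, 0.20 ± 0.21 and -0.20 ± 0.24. The difference between the fasted and fed knockout changes of A_52_P328044 was 0.56 ± 0.27 and did not pass (limma adjusted p = 0.766). In that test of interaction 0 of 22 member probes passed, where 0.0119% of all probes did, and 0 had an unadjusted p under 0.05, where 6.55% did.

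The coactivators did not differ by genotype beyond the threshold. Pygo2 A_52_P362128 (chromosome 3, plus strand, 89238431-89238490) gave -0.10 ± 0.14 in newborns, 0.07 ± 0.16 in fasted and 0.39 ± 0.19 in fed mice (limma adjusted p = 0.857, 0.943 and 0.751). Its fed values were -0.81, -0.64 and -0.74 in controls, none well above background, and -0.66, 0.05 and -0.40 in knockouts, of which 2 arrays were. Bcl9, which bridges beta-catenin and Pygopus, was readable with A_52_P310002 (chromosome 3, minus strand, 97019011-97019070). It gave -0.14 ± 0.20, -0.25 ± 0.26 and 0.06 ± 0.30 in newborn, fasted and fed mice.

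Apc, the scaffold of the destruction complex, has 6 probes on chromosome 18, plus strand, of which 5 were tested. Their changes ran from -0.11 to 0.36 in newborns, from -0.15 to 0.18 in fasted and from -0.05 to 0.24 in fed mice, and none passed. The probe at 34432157 to 34436232, which spans an intron, separated the newborn groups: 0.12, -0.16, -0.26 and 0.00 in wild types and 0.33, 0.18, 0.23 and 0.40 in knockouts, with a change of 0.36 ± 0.11 (limma adjusted p = 0.198). Such a separation, in either direction, was found in 8.84% of all probes. This probe was well above background on 2 newborn wild-type and 4 newborn knockout arrays. The other 4 tested Apc probes gave -0.11 to -0.03 in the same mice. Apc A_52_P284981 was well above background on no array.

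Of 52 further genes of destruction complex, coactivators, corepressors, inhibitors and junction partners, 49 were tested in each fit, and 0 passed in newborn, fasted or fed knockouts (limma, with 4, 3 and 2 at an unadjusted p under 0.05). Among all probes tested, 1.15%, 0.434% and 0.215% were called in these 3 comparisons, and 12.7%, 10.4% and 6.84% had an unadjusted p under 0.05 (limma). The median change of the 49 genes was -0.11 in newborns against -0.03 over all probes, 0.04 against -0.00 in fasted mice and 0.05 against 0.03 in fed mice. The medians of the tested member probes were -0.07, 0.05 and 0.07. Averaged over feeding states, 0 of 22 member probes passed, where 0.609% of all probes were called, and 0 had an unadjusted p under 0.05, where 8.79% did. The average and the interaction use the same arrays as the fasted and fed comparisons.

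**Figure D3:**
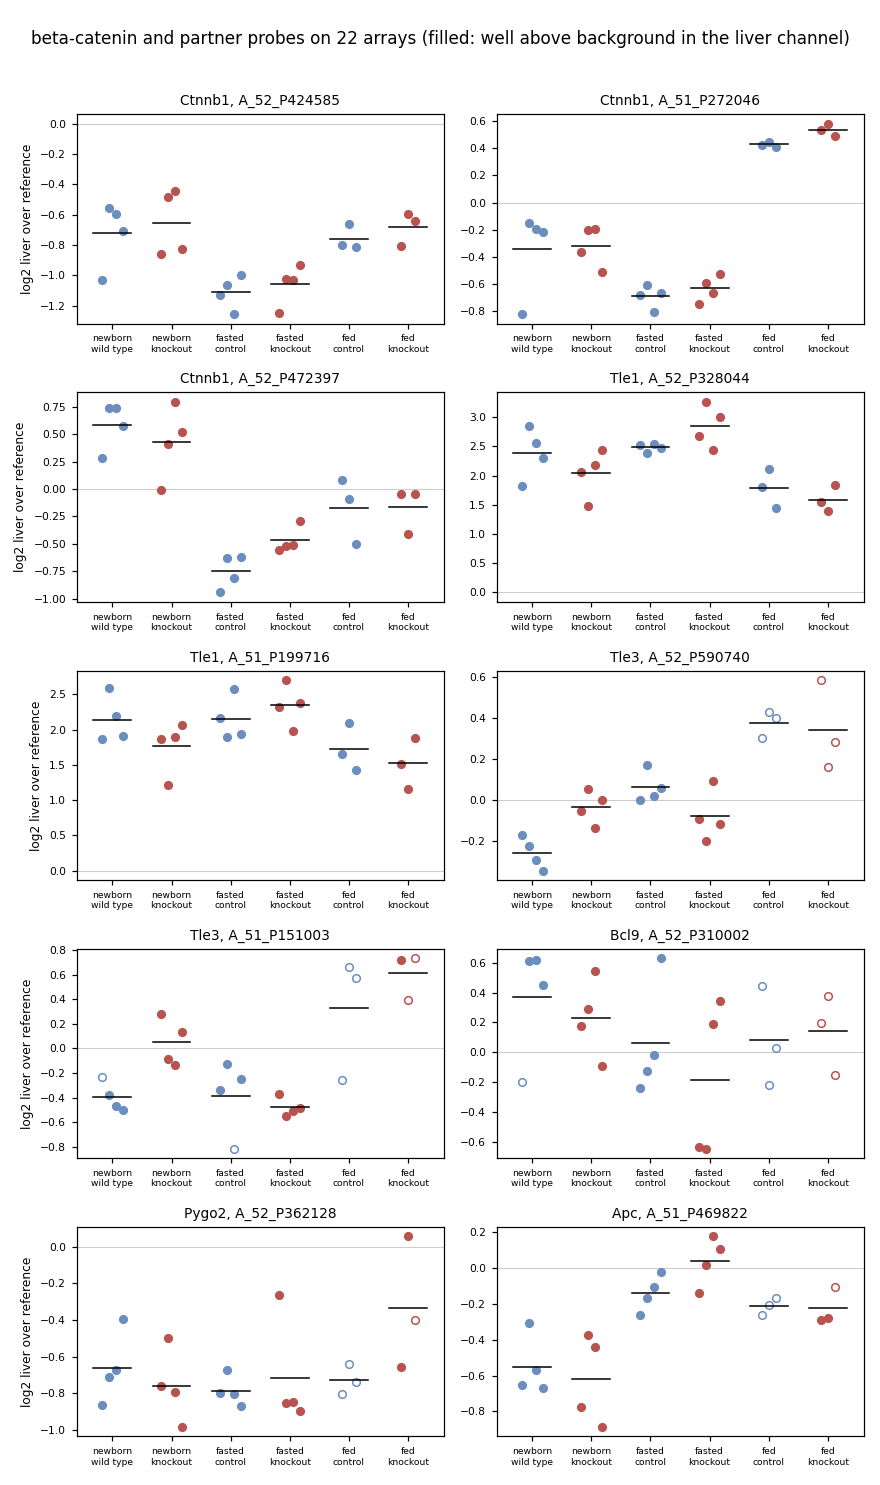
Log2 liver over reference (vertical axes) of 10 probes for Ctnnb1, Tle1, Tle3, Bcl9, Pygo2 and Apc in 22 mice of 6 groups (horizontal axes); each point is 1 mouse, filled where the liver channel was well above background, and lines are group means. Genotypes overlap in most panels, and the values of Ctnnb1 A_51_P272046 lie from 0.41 to 0.58 on fed arrays and from -0.81 to -0.52 on fasted arrays.

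Feeding state moved the ratios of many probes, members among them. Between fasted and fed controls 10 of 22 member probes passed (4 higher and 6 lower in the fasted state), where 37.9% of all probes did (22.2% higher and 15.7% lower). Of these members, Tcf7 A_52_P244711, both Tle3 probes, Tcf7l1 A_52_P387724, Apc A_51_P273378 and Apc A_51_P429446 were well above background on no fed control array. For them the comparison sets fasted signal against fed values near background. Between fasted and fed knockouts 9 of 22 passed (4 higher and 5 lower), where 35.6% of all probes did (19.6% higher and 15.9% lower). With the scanner software's own processed signals the split among members became 12 higher and 1 lower in controls, and with the liver channel alone 9 higher and 3 lower. Feeding state and slide cannot be told apart in this design. In knockouts the splits became 11 higher and 2 lower and 9 higher and 2 lower. Splits of all probes under these settings are not given, so those among members are no result about the members. With processed signals the median change of all probes also rose, as given in the last section. Without fed control 3 the count in controls was 4, and without fed control 2 it was 5.

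The reference channel, where every array carries one RNA, moved with feeding state as well. Taken alone, it differed between fasted and fed control arrays for 60.6% of all probes and for 12 of the 22 member probes (limma). For Ctnnb1 A_51_P272046 the ratio was -0.68, -0.60, -0.81 and -0.66 in fasted controls and 0.43, 0.45 and 0.41 in fed controls, a change of -1.12 ± 0.09 (limma adjusted p = 5.98e-06). Its reference channel alone was higher by 1.41 on the fasted arrays, and its liver channel alone was higher by 0.40, so the direction turned without the reference. The same happened to Ctnnb1 A_52_P424585 (ratio -0.35, reference 0.87, liver 0.56), to Tle3 A_52_P590740 (ratio -0.32, reference 1.27, liver 0.80) and to Tcf7 A_52_P244711 (ratio -1.15, reference 1.26, liver 0.43). For these probes the array gives no single direction with fasting.

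Of the probes called between fasted and fed controls, Ctnnb1 A_52_P472397, Tle3 A_51_P151003, Tcf7l1 A_52_P387724, Apc A_51_P273378 and Apc A_51_P429446 kept their direction in all alternatives run, but all except the last lost their call in some. With processed signals Ctnnb1 A_52_P472397 gave -0.088 and Tle3 A_51_P151003 gave -0.70 (limma adjusted p = 0.692 and 0.397), with median centring Tcf7l1 A_52_P387724 gave 0.033 (0.856), and with the liver channel alone Apc A_51_P273378 gave 0.024 (0.931). By loess ratio Ctnnb1 A_52_P472397 was lower in fasted controls (-0.58 ± 0.15, limma adjusted p = 0.00906) and in the liver channel (-0.83). In knockouts its ratio differed by -0.30 ± 0.15 and did not pass (limma adjusted p = 0.137). Tle3 A_51_P151003 was lower in fasted controls (-0.71 ± 0.21) and in fasted knockouts (-1.09 ± 0.21). Its liver channel alone gave -0.90 and -1.04. However, it was well above background on no fed control array and on 1 fed knockout array. Its fed values thus lie near background in the ratio and in the liver channel, and these changes give no direction with fasting. Tcf7l1 A_52_P387724 was higher in fasted controls (0.47 ± 0.15) and knockouts (0.66 ± 0.15), with the liver channel at 0.72 and 0.90, but it was well above background on no fed array. Tle1 A_52_P328044 was higher by ratio in fasted controls (0.69 ± 0.19) and knockouts (1.26 ± 0.19), with the liver channel at 0.20 and 0.14 and neither past the threshold. In controls this Tle1 ratio became -0.047 with local backgrounds marked as outliers kept. Apc A_51_P429446 was higher in fasted controls (0.89 ± 0.15, limma adjusted p = 0.000564) and knockouts (0.50 ± 0.15, limma adjusted p = 0.0176), with reference channels of -0.76 and -0.66 and no fed array well above background. Its liver channel alone gave 0.40 in controls and 0.17 in knockouts (limma adjusted p = 0.0314 and 0.367), so the call in knockouts was lost. None of the Tcf7l2 probes passed between feeding states by loess ratio, where A_52_P566741 differed by 0.33 ± 0.19 in controls and by 0.47 ± 0.19 in knockouts (limma adjusted p = 0.179 and 0.0642). A_52_P566741 passed in controls and in knockouts with processed signals (0.91 and 0.74), median centring (0.76 and 1.04) and the liver channel alone (0.64 and 0.66), and in knockouts without fasted knockout 2 (0.63, limma adjusted p = 0.0140). With processed signals the other Tcf7l2 probes passed in controls too (1.60 for A_52_P146043 and 0.66 for A_52_P316355), whereas with median centring they passed in the opposite direction (-0.43 and -0.74). Neither of these probes was well above background on any fed array.

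**Figure D4:**
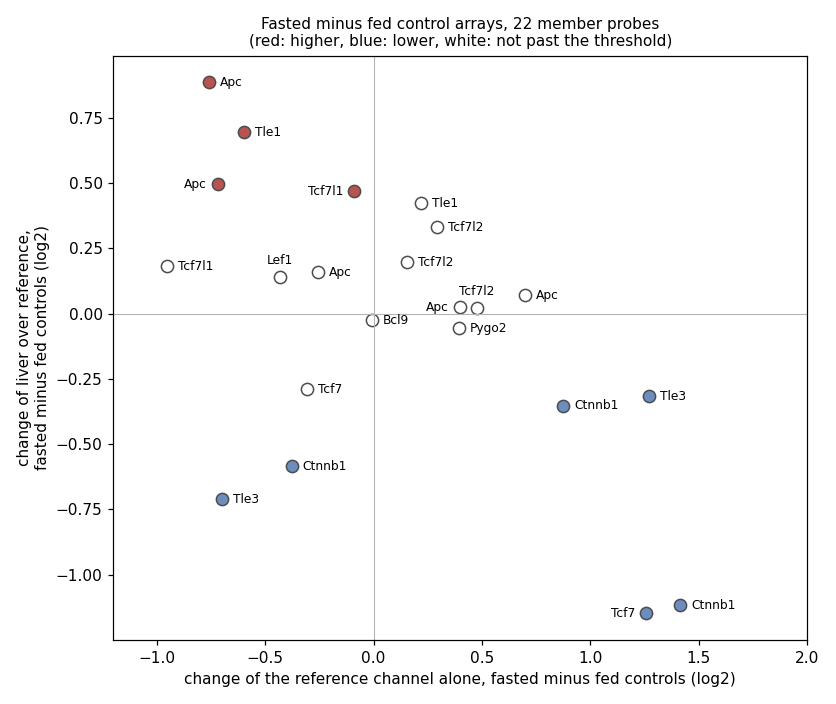
Change of the liver over reference ratio (vertical axis, log2) against the change of the reference channel alone (horizontal axis, log2) between fasted and fed control arrays, 1 point for each of 22 member probes. Ctnnb1 A_51_P272046 and Tcf7 A_52_P244711 sit at the lower right, at -1.12 and -1.15 by ratio with 1.41 and 1.26 in the reference channel.

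Newborn wild types and fed adult controls differ in age, glucose, genotype (Tcf7l2+/+ against Tcf7l2loxp/loxp), tamoxifen and slide, which cannot be told apart. Of 22 member probes 13 passed (5 higher and 8 lower in newborns), where 55.4% of all probes did (30.6% higher and 24.8% lower). With processed signals the split was 8 higher and 3 lower, with median centring 9 and 3, and with the liver channel alone 4 and 4. Lef1 A_51_P420400 was higher in newborns by 0.80 ± 0.17 (limma adjusted p = 0.000470), and it passed in all 11 alternatives and without each of 7 arrays, from 0.61 to 1.23. It was well above background on 3 of 4 newborn and on no fed control array, and no fold could be given as a bound. B cell markers summed to 10300 to 14400 in newborn wild types and to 1130 to 1680 in fed controls, and erythroid markers to 38400 to 62300 and to 12100 to 17000. In fed controls 8 of the 9 B cell genes and 6 of the 7 erythroid genes were well above background on no array. The fed sums of both lists thus hold background signal in part. The part of such cells in the Lef1 value was not tested.

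Tcf7 A_52_P244711 was lower in newborns by ratio, by -1.51 ± 0.30 (limma adjusted p = 0.000283), with the liver channel alone at -0.46 and not past the threshold. Beta-catenin probes went in opposite directions: A_51_P272046 gave -0.77 ± 0.13, A_52_P472397 gave 0.75 ± 0.17 and A_52_P424585 gave 0.04 ± 0.13. In the liver channel alone none of these 3 passed, at 0.22, 0.20 and 0.12, so the direction of A_51_P272046 turned. Tcf7l2 A_52_P566741 differed by -0.42 ± 0.20 between the ages and did not pass (limma adjusted p = 0.0787). It passed with the liver channel alone (-0.52, limma adjusted p = 0.0421), without newborn wild type 4 (-0.58, 0.0182) and without fed control 3 (-0.56, 0.0407), and with median centring it gave 0.31 (0.305).

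The 5 genes whose pattern over the 22 arrays was most like that of Tcf7l2 A_52_P566741 were Tspan12, Gigyf2, Psd3, Kif1c and Gpat4. Likeness was the root mean square difference of log2 ratios, each centred on its own mean, and it ran from 0.28 to 0.30 among these genes, of 6696 genes compared. The SD of the Tcf7l2 probe itself over the arrays was 0.72. In newborn wild types and knockouts Tspan12 averaged 6.01 and 5.66, and Kif1c averaged -0.40 and -0.94. Gigyf2 averaged -0.18 and -0.62, Psd3 0.78 and 0.31, and Gpat4 0.44 and 0.15. The genes were chosen by likeness over these same arrays, so lower means in newborn knockouts follow in part from that choice.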

How the data were processed

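The authors deposited scanner output of 22 2-colour Agilent arrays (liver Cy3, reference Cy5 per the labels), quantified with Feature Extraction 10.5.1.1 per the file headers (8.5.1.1 per the submitters' processing notes), on build mm9. The deposited spot intensity values are not normalized. The deposited log10 ratio and the authors' table hold the same values, reference over liver.

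Ratios were made from median intensity values: normexp background correction with an offset of 50, local backgrounds marked as outliers replaced by the array's median, loess within arrays without control spots, outlier spots missing, spots of a probe averaged, and the sign turned to log2 liver over reference (log2 computed here from the deposited intensities). Dim probes were left out: the liver channel had to pass the scanner's background mark on 4 or more newborn arrays, 3 or more adult arrays or, for the fit across ages, 3 or more of all arrays. Groups were compared per probe with limma 3.58.1 in R 4.3.3 (lmFit, eBayes, two-sided, Benjamini-Hochberg over all probes tested, threshold 0.05). The fits held 8 newborn arrays, 14 adult arrays with 4 group means, or all 22. The scripts were tested on simulated data. Intervals are at 95%. Bounds for probes dark in a group compare the bright group's mean with the lowest signal well above background, after loess and Aquantile, and are open to dye bias since no dyes were swapped. Of 41174 probes, 32831 were named through RefSeq (GRCm38.p6, names only) and 8343 kept the file's name.

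The members and gene lists were chosen with earlier results of these data known. Every member probe is named, and from other lists up to 4 genes per comparison with the smallest adjusted p past the threshold could be named. Lists used the brightest tested probe of a gene. Samples were not treated as paired by replicate number in the main fits. Correlations of same-numbered deviations ran from -0.247 to 0.496 in newborns, from 0.00532 to 0.0905 in fasted and from -0.116 to 0.146 in fed mice. Those of different-numbered deviations ran from -0.592 to 0.631, from -0.266 to 0.217 and from -0.126 to 0.17. With so few pairs these ranges do not settle whether samples were paired. Alternatives covered background, normalization, filters, probes per gene, weights, blocks, slides and left-out arrays. The number of arrays limits the precision.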

Additional observations from a re-analysis of the deposited data

Results flagged for a closer look

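In groups of 4 mice, 6 of 86 combinations of member probe and group had a sample far from the others by Dixon's criterion, and chance alone gives about 1 in 20. Newborn wild type 1 was the lowest of its group for Tcf7l1 A_51_P156547 (-1.38) and for Ctnnb1 A_51_P272046 (-0.82). Fasted knockout 1 was the highest for Tcf7 A_52_P244702 (-1.24), where it was not well above background, and for Pygo2 A_52_P362128 (-0.27). Fasted knockout 2, which had high pancreas and fat signals, was the lowest for Tcf7l1 A_52_P387724 (-0.049). Fasted knockout 4 was the highest for Ctnnb1 A_52_P472397 (-0.29). No member differed between feeding states in its knockout change past the threshold.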

How the results depend on the processing

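The count of member probes past the threshold stayed at 0 in the fed, average and interaction comparisons under every alternative run. It became 1 in newborns with processed signals (Tle3 A_51_P151003, 0.73), with the liver channel alone, array weights and the replicate block (Tcf7l2 A_52_P566741; -0.82, -0.93 and -0.87), and 1 in fasted mice with processed signals (Tcf7 A_52_P244702, -1.80). Leaving out 1 array gave 0 to 1 in newborns, 0 to 0 in the other knockout comparisons, 4 to 9 and 7 to 12 for fasted minus fed in controls and knockouts (against 10 and 9 with all arrays), and 9 to 12 for age (against 13). Other counts that moved were 5 and 5 with outlier backgrounds kept and 4 and 4 with 1 probe per gene for controls and knockouts, 14 for knockouts with median centring, and 8 with the liver channel alone and 5 with 1 probe per gene for age. With 1 probe per gene fewer probes are tested, and for the others the cause was not tested. The replicate block gave 8 and 9 for the feeding comparisons. Aquantile leaves ratios as they are.

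Directions turned as follows. With processed signals, fasted minus fed controls gave 1.29 for Bcl9 A_52_P310002 and 1.55 for Tle3 A_52_P590740, knockouts 1.03 for the latter, and age 1.08 for it, 0.75 for Apc A_52_P675171 and 1.08 for Tcf7l2 A_52_P146043. This setting moved the median of all probes to 0.48, 0.48 and 0.46 in these comparisons, against 0.08, 0.06 and 0.07. With median centring (medians 0.17, 0.22 and 0.25), controls gave -0.43 and -0.74 for Tcf7l2 A_52_P146043 and A_52_P316355, and Ctnnb1 A_52_P424585 gave 0.36 in controls and 0.43 in knockouts. Age gave 0.45 for Apc A_51_P273378 and 0.14 for Apc A_51_P469822. With the liver channel alone, controls gave 0.40 and 0.56 for Ctnnb1 A_51_P272046 and A_52_P424585, 0.80 for Tle3 A_52_P590740, -0.74 for Tcf7l1 A_51_P156547 and 0.43 for Tcf7 A_52_P244711. Knockouts gave 0.30, 0.56, 0.78 and 0.19 for the same probes without Tcf7l1. Age gave 0.23 and 0.29 for Apc A_52_P675171 and A_51_P469822, 0.22 for Ctnnb1 A_51_P272046, 0.12 for Tle3 A_52_P590740 and 0.11 for Tcf7 A_52_P244702. With outlier backgrounds kept, Tle1 A_52_P328044 gave -0.047 in controls. The cause was not tested. Kept backgrounds also moved the median change of all probes between fasted knockouts and controls to 0.13 from -0.00. Adding negative-control signal to the background, chosen after seeing the data, gave the same counts. On fed arrays weak liver signal limits most members.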
